A study of Mus musculus with 10 samples.

Results

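The primitive endoderm is the epithelium that forms on the inner cell mass of the blastocyst and gives rise to the parietal and visceral endoderm of the yolk sac. GATA6 and GATA4 act in its specification downstream of FGF and ERK signaling, with SOX17 and SOX7 following, and its cells signal through the PDGF receptor PDGFRA, traffic cargo with the endocytic adaptor DAB2 and secrete a basement membrane of laminin and type IV collagen. Mouse embryonic stem cells (ESCs) in 2i and LIF medium, which blocks the ERK kinase cascade and GSK3, are a model of the epiblast, the other lineage of the inner cell mass. The members described here are 10 genes taken from a fixed list, 5 transcription factors (Gata4, Gata6, Sox7, Sox17 and Foxa2), the receptor gene Pdgfra, the adaptor gene Dab2 and 3 basement membrane genes (Lama1, Lamb1 and Col4a1), of 35427 genes with a transcript in the files. The rule uses no measured value, but the list was drawn up with earlier results of these data known.

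RNA was sequenced from 10 male ESC lines of C57BL/6 origin, 3 Tdg+/+, 3 Tdg+/- and 4 Tdg-/-, each grown on gelatin in serum-free 2i and LIF medium without treatment. TDG is a DNA glycosylase that excises formylated and carboxylated cytosine. The lines came from blastocysts of matings between Tdg+/- parents and were kept on inactivated mouse feeder cells before feeders were removed, so each line is 1 derivation and 1 library, and which mating gave which line is not in the labels. p-values therefore measure the spread between lines only.

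The libraries held 31095285 to 39916039 reads in genes (median 36008472), so that 1 read was worth 0.0244 to 0.0312 CPM (reads per 1000000 of the TMM-scaled library). Tdg, the targeted gene, followed the labels, with 85.4 to 92.7 CPM in the Tdg+/+ lines, 39.99 to 46.6 CPM in the Tdg+/- lines and 7.71 to 10.6 CPM in the Tdg-/- lines. The summed level of 15 pluripotency genes was 10450 to 11410 CPM in Tdg-/- lines 2 to 4 and 8308 to 9044 CPM in the 7 other lines, Tdg-/- line 1 among them. Abundant genes weigh most in this sum, Dppa5a alone giving 4545 to 5170 CPM in Tdg-/- lines 2 to 4 and 3021 CPM in Tdg-/- line 1. Most genes of the list went the other way. For Tdg-/- against Tdg+/+ 10 had a negative and 5 a positive log2 fold change (median -0.23). Against Tdg+/- these were 9 and 6 (median -0.13). Tdg-/- line 1 stood apart from the other Tdg-/- lines, differing from them by 80.7 to 132.1 chi-square units per gene where those 3 lines differed by 17.68 to 25.13 among themselves, and results that rest on it are given with and without it. Line 1 was also the farthest from the others in Tdg+/+, by 50.32 and 67.08 units where lines 2 and 3 differed by 19.4, and in Tdg+/-, by 39.52 and 53.44 where lines 2 and 3 differed by 24.76. The 14 fibroblast markers, as a measure of feeder RNA, summed to 26.5 to 56.2 CPM in the Tdg+/+ lines, 7.12 to 58.0 CPM in the Tdg+/- lines and 17.4 to 42.4 CPM in the Tdg-/- lines, and 12 of the 14 had reads in every line. Twist2 and Prrx1 were at 0 in at least 1 line. RNA from fewer cells of a type and less RNA per cell cannot be told apart in such bulk libraries.

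The basement membrane genes had the highest mean levels of the members. Per transcript length, on the TPM scale and averaged over the 10 lines, Lamb1 was at 4.96, Lama1 at 4.60 and Col4a1 at 1.58, Gata4 at 0.600, Pdgfra at 0.149, Sox7 at 0.130, Dab2 at 0.0581, Sox17 at 0.0493, Foxa2 at 0.0141 and Gata6 at 0.0117. Lamb1, with 2.89 to 7.56 TPM, and Lama1, with 2.65 to 7.36 TPM, had ranges over lines that overlapped nearly throughout. The ranges of Col4a1 (0.295 to 2.41 TPM) and Gata4 (0.236 to 0.885 TPM) overlapped in part, and so did those of Pdgfra (0.0710 to 0.354 TPM) and Sox7 (0.0455 to 0.232 TPM). Foxa2 and Gata6 could not be ordered, since each reached 0 reads in some lines. The places of Pdgfra, Sox7, Dab2 and Sox17 are not firm either, since a gene's TPM adds up its transcripts and a few reads on a short one weigh heavily. In Tdg+/+ line 1, 2 reads on Dab2-207, of 642 bases, gave 0.169 TPM. In Tdg-/- line 3, 5.15 reads on Pdgfra-209, of 615 bases, gave 0.307 TPM. The TPM ranges of Col4a1 and Gata4 are widened in the same way. In Tdg-/- line 3, the highest for Col4a1, 9.80 reads on Col4a1-203, of 545 bases, gave 0.712 TPM. In Tdg+/+ line 1, 8.84 reads on Gata4-205, of 683 bases, gave 0.456 TPM. Of the protein-coding genes, 64.8% had a lower mean TPM than Lamb1, 48.9% a lower one than Gata4 and 27.3% a lower one than Gata6. Lama1 and Lamb1 together took 83.9% to 93.7% of the reads of the 10 members in a line, while the 5 transcription factors together gave 53 to 102 reads. The plot of levels per transcript length shows these values.

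**Figure D1:**
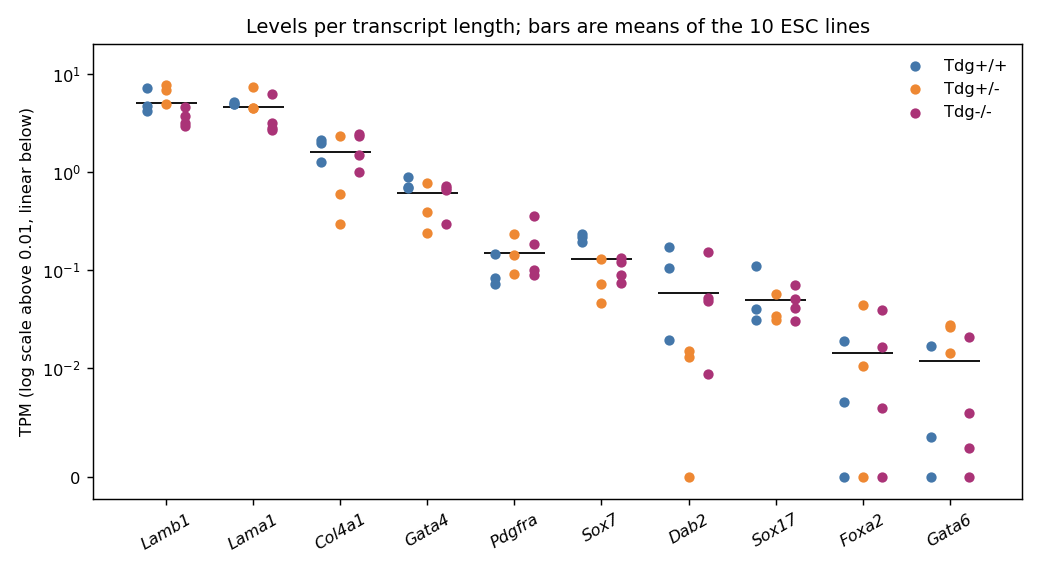
Levels of the 10 primitive endoderm genes in TPM (log scale above 0.01, linear below), 1 point per ESC line coloured by genotype, with a bar at the mean of the 10 lines. The laminin genes Lamb1 and Lama1 stand highest at means of 4.96 and 4.60 TPM, and Foxa2 and Gata6 lowest at 0.0141 and 0.0117 TPM with lines at 0.

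The windows before the start sites of members differed in CG content. The RefSeq table of promoter windows (GRCm38.p6) held 8 windows for 5 of the 10 members, namely Foxa2, Pdgfra, Dab2, Lamb1 and Col4a1, and windows for Gata4, Gata6, Sox7, Sox17 and Lama1 were not used here. Windows of Lamb1, Pdgfra and Dab2 are shown because they contrast the member that differed between genotypes with members at under 1 TPM, and CG dinucleotides, where cytosine is methylated, formylated and excised by TDG, are in capitals. Each is given 5′ to 3′ on the plus strand up to the first annotated exon base, from chr12:31265043-31265233 for Lamb1, chr5:75152001-75152250 for Pdgfra, and chr15:6299539-6299787 and chr15:6386498-6386597 for the first and second start of Dab2.
Lamb1: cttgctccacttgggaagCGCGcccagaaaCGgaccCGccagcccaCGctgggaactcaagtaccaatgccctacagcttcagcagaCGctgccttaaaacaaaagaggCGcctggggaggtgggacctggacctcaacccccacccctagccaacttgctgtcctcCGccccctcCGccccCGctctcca
Pdgfra: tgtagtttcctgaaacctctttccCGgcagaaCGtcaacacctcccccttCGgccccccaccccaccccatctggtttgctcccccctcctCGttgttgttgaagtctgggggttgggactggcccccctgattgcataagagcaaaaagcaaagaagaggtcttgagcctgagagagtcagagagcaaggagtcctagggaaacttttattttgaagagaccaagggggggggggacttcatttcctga
Dab2 first start: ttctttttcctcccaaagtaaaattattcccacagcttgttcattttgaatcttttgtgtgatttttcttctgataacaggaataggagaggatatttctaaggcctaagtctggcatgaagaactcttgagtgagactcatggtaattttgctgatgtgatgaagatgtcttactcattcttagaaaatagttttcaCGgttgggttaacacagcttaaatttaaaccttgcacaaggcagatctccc
Dab2 second start: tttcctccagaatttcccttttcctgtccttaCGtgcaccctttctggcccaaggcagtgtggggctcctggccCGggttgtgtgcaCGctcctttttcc
In the full 250 bases before each start, Lamb1 had 14 CG dinucleotides, Pdgfra 4, the 2 starts of Dab2 2 and 17, the 3 starts of Foxa2 6, 20 and 13, and Col4a1 31. The median of all 32851 windows was 6, and 29.4% of windows held at least as many as Lamb1 and 5.19% at least as many as Col4a1. The 250 bases of Lamb1, Col4a1 and each Dab2 start include bases annotated as untranslated exon. The printed stretches, which stop before such bases, held 10 CG dinucleotides for Lamb1, 4 for Pdgfra, and 1 and 3 for Dab2. The GATA motif AGATAA, searched on both strands, was in 1 of the 8 windows, at the most downstream start of Foxa2, and in 9.99% of all windows. The SOX motif AACAAT was in 0 of the 8 and in 9.42% of all windows. The GC box GGGCGG was matched 2 times in the 250 bases of Lamb1, 2 and 1 times at the Foxa2 starts with 20 and 13 CG dinucleotides, and was in 32.7% of all windows. These matches describe letters and not binding, and absence of a match says nothing of a factor.

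The transcription factor genes had few reads in all 3 genotypes. Gata4, a zinc finger factor of primitive endoderm and heart, had the most reads, with 47, 50 and 67 in Tdg+/+ lines 1 to 3, 49, 28 and 48 in Tdg+/- lines 1 to 3, and 44, 57, 59 and 36 in Tdg-/- lines 1 to 4. The groups overlapped. Its mean level was 1.63 ± 0.405 CPM (SD, n = 3) in Tdg+/+, 1.12 ± 0.366 CPM (SD, n = 3) in Tdg+/- and 1.41 ± 0.269 CPM (SD, n = 4) in Tdg-/- lines. By edgeR's quasi-likelihood test with Benjamini-Hochberg adjustment over all genes tested, the log2 fold change of Gata4 was -0.56 (SE 0.337, adjusted p = 0.439) for Tdg+/- against Tdg+/+, -0.19 (SE 0.264, adjusted p = 0.7) for Tdg-/- against Tdg+/+ and 0.34 (SE 0.295, adjusted p = 0.433) for Tdg-/- against Tdg+/-. Its transcript Gata4-203 took 76.7% of the reads and Gata4-201 10.3%.

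Sox7, an HMG box factor of the parietal endoderm, had 22, 23 and 23 reads in the Tdg+/+ lines, 5, 9 and 17 in the Tdg+/- lines and 12, 13, 17 and 9 in the Tdg-/- lines. Every line with a disrupted Tdg allele lay below every Tdg+/+ line. The means were 0.670 ± 0.0466 CPM (SD, n = 3), 0.266 ± 0.136 CPM (SD, n = 3) and 0.368 ± 0.0875 CPM (SD, n = 4) for Tdg+/+, Tdg+/- and Tdg-/-. Sox7 fell short of the threshold, with log2 fold changes of -1.32 (SE 0.446, adjusted p = 0.199) for Tdg+/- and -0.84 (SE 0.328, adjusted p = 0.296) for Tdg-/- against Tdg+/+, and an adjusted p of 0.0999 for any difference among the 3 genotypes. It entered these tests only because the Tdg+/+ lines reached 20 reads, and was not tested between Tdg-/- and Tdg+/- lines, where no line did. With the 3 surrogate variables that the study's methods use, the comparison of Tdg+/- with Tdg+/+ gave a log2 fold change of -1.51 (adjusted p = 0.0353) with 1 residual degree of freedom among 6 lines, a fit in which 24.1% of all genes were called. All reads of Sox7 were assigned to 1 transcript, Sox7-201.

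Gata6, which acts first in primitive endoderm specification, had 4, 0 and 1 reads in the Tdg+/+ lines, 6, 7 and 4 in the Tdg+/- lines and 0, 1, 1 and 2 in the Tdg-/- lines. The Tdg+/- lines lay above the Tdg-/- lines and overlapped the Tdg+/+ lines. Sox17, needed for definitive as well as extraembryonic endoderm, had 15, 7 and 8 reads in the Tdg+/+ lines, 4, 9 and 8 in the Tdg+/- lines and 11, 8, 11 and 11 in the Tdg-/- lines, with overlapping groups. Foxa2, a forkhead factor of visceral and definitive endoderm, had 0 to 3 reads in the Tdg+/+ lines, 0 to 2 in the Tdg+/- lines and 6, 0, 1 and 1 in the Tdg-/- lines. A count of 0 allows up to 3 reads, or 0.0733 to 0.0936 CPM in a line, a limit that covers counting error only. These genes and Dab2 did not reach 20 reads in any line, and with no filter on low counts the smallest adjusted p among these 4 genes was 0.0866, for Gata6 between Tdg-/- and Tdg+/- lines (edgeR quasi-likelihood test, log2 fold change -2.28, SE 0.775). Differences of this size in so few reads were not resolved at this depth.

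**Figure D2:**
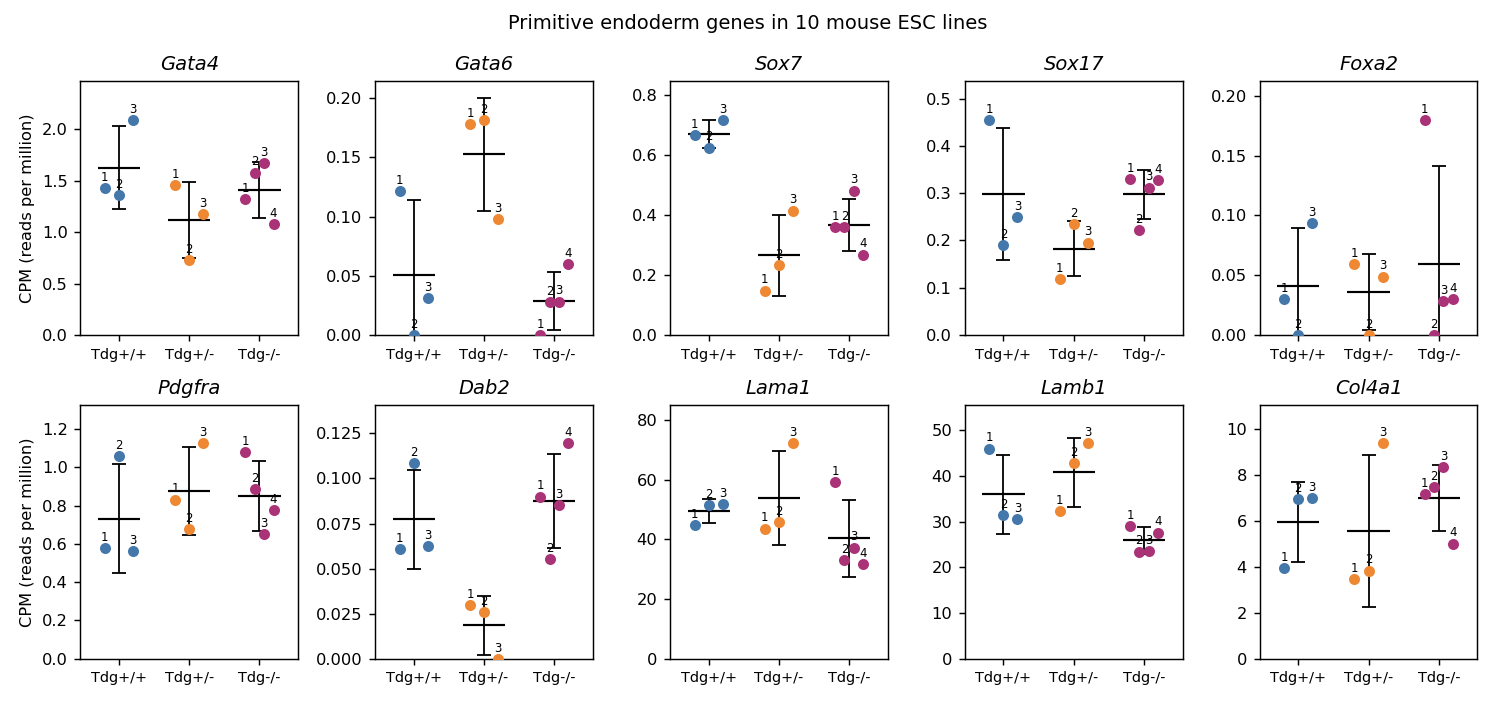
CPM of each primitive endoderm gene in the 10 ESC lines by genotype, with line numbers beside the points and a bar for the mean ± SD of each genotype. Sox7 was at 0.625 to 0.718 CPM in the Tdg+/+ lines and at 0.148 to 0.482 CPM in the others, and Lamb1 was at 23.4 to 29.0 CPM in the Tdg-/- lines and at 30.5 to 47.1 CPM in the others.

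The receptor gene Pdgfra had 19, 39 and 18 reads in the Tdg+/+ lines, 28, 26 and 46 in the Tdg+/- lines and 36, 32, 23 and 26 in the Tdg-/- lines. The groups overlapped, and the log2 fold changes were 0.24 (adjusted p = 0.786), 0.22 (adjusted p = 0.723) and -0.05 (adjusted p = 0.915) for Tdg+/- against Tdg+/+, Tdg-/- against Tdg+/+ and Tdg-/- against Tdg+/-, with SEs of 0.378, 0.335 and 0.298 (edgeR quasi-likelihood test). Pdgfra is also a fibroblast gene, and its transcript Pdgfra-201 took 71.7% and Pdgfra-202 22.8% of its reads. Of 5 genes of the PDGF ligands and the other receptor, 4 were tested in each comparison of 2 genotypes. By edgeR 0 were called in each, where 0.0288%, 0.0718% and 9.03% of all genes were. DESeq2 also called 0, where it called 5.36%, 0.668% and 24.0% of all genes. At an unadjusted p under 0.05 by edgeR there were 0, 1 and 0, where 17.0%, 15.9% and 35.2% of all genes had such a p. The smallest p was that of the ligand gene Pdgfa for Tdg-/- against Tdg+/+ (log2 fold change -0.32, SE 0.104, unadjusted p = 0.012, adjusted p = 0.295). Dab2 had 2, 4 and 2 reads in the Tdg+/+ lines, 1, 1 and 0 in the Tdg+/- lines and 3, 2, 3 and 4 in the Tdg-/- lines. The Tdg+/- lines lay below all other lines, at no more than 1 read, and with no filter the adjusted p was 0.514 against Tdg+/+ and 0.192 between Tdg-/- and Tdg+/- (edgeR quasi-likelihood test). As for Gata6, differences in so few reads were not resolved at this depth.

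Among the basement membrane members, Lamb1, the β1 chain shared by most embryonic laminins, was lower in Tdg-/- than in Tdg+/- lines. It had 1515, 1159 and 978 reads in the Tdg+/+ lines, 1091, 1648 and 1927 in the Tdg+/- lines and 968, 846, 828 and 924 in the Tdg-/- lines. At 29.0, 23.4, 23.5 and 27.6 CPM the 4 Tdg-/- lines lay below all 6 others, of which Tdg+/+ line 3 was the lowest at 30.5 CPM and Tdg+/- line 3 the highest at 47.1 CPM. The means were 36.0 ± 8.65 CPM (SD, n = 3) in Tdg+/+, 40.8 ± 7.56 CPM (SD, n = 3) in Tdg+/- and 25.9 ± 2.87 CPM (SD, n = 4) in Tdg-/- lines. The log2 fold change for Tdg-/- against Tdg+/- was -0.66 (SE 0.150, edgeR adjusted p = 0.0354). Against Tdg+/+ it was -0.46 (SE 0.166, adjusted p = 0.295) for Tdg-/- and 0.16 (SE 0.199, adjusted p = 0.718) for Tdg+/- lines, and any difference among the 3 genotypes gave an adjusted p of 0.0782. Without Tdg+/+ line 1, the highest of its group, these log2 fold changes were -0.24 (adjusted p = 0.399) and 0.39 (adjusted p = 0.208), and Lamb1 was called for any difference, as were 6.11% of all genes. The call between Tdg-/- and Tdg+/- was lost, at adjusted p of 0.0818 to 0.134, without any 1 of Tdg+/- lines 2 and 3 and Tdg-/- lines 2, 3 and 4, and at 0.0613 with an offset for transcript length. Without Tdg-/- line 1 the log2 fold change was -0.72 (adjusted p = 0.00582), in a fit that called 22.2% of all genes lower.

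Lama1, the α1 chain of laminin-111, the laminin of the earliest embryonic basement membranes, had 1479, 1896 and 1663 reads in the Tdg+/+ lines, 1471, 1764 and 2953 in the Tdg+/- lines and 1973, 1194, 1314 and 1066 in the Tdg-/- lines. Tdg-/- line 1, at 59.2 CPM, lay within the range of the other genotypes, while the other Tdg-/- lines, at 33.1, 37.3 and 31.8 CPM, lay below all of them. The log2 fold changes were 0.11 (SE 0.189, adjusted p = 0.811) for Tdg+/- and -0.28 (SE 0.203, adjusted p = 0.452) for Tdg-/- against Tdg+/+, and -0.42 (SE 0.246, adjusted p = 0.249) for Tdg-/- against Tdg+/- by edgeR. Without Tdg-/- line 1 they became -0.52 (adjusted p = 0.0132) against Tdg+/+ and -0.67 (adjusted p = 0.0194) against Tdg+/-, so the call on Lama1 turned on that line. In these fits 10.5% and 22.2% of all genes were called lower, so the change in calls was not particular to Lama1. The transcript Lama1-201 took 94.4% of the reads.

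Col4a1, the α1 chain of type IV collagen, had no group of lines apart from the others. It had 130, 256 and 224 reads in the Tdg+/+ lines, 117, 148 and 384 in the Tdg+/- lines and 239, 270, 295 and 168 in the Tdg-/- lines. The groups overlapped, Tdg+/- line 3 being the highest of all lines at 9.38 CPM and Tdg+/- line 1 the lowest at 3.47 CPM. The log2 fold changes were -0.12 (SE 0.395, adjusted p = 0.907) for Tdg+/- and 0.25 (SE 0.243, adjusted p = 0.574) for Tdg-/- against Tdg+/+, and 0.33 (SE 0.333, adjusted p = 0.495) for Tdg-/- against Tdg+/- by edgeR. In 4 of the 6 fits that left out a line of the first comparison its sign turned.

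The split of reads between transcripts varied more than the gene sums. For Lamb1, the transcripts Lamb1-201 and Lamb1-205 took 56.5% and 43.0% of the reads over the 10 lines, but Lamb1-205 was given 0 reads in Tdg+/+ line 3 and 393.8 to 1086 in the other lines. For Col4a1, the transcript Col4a1-208, annotated as a target of nonsense-mediated decay, took 56.6% and Col4a1-201 30.5%. Col4a1-208 was given 0 reads in Tdg+/- line 1, where Col4a1-201 was given 117, and Col4a1-201 was given 0 reads in Tdg+/+ line 1 and Tdg+/- line 2. Such shares are Salmon's estimates for transcripts that share most of their sequence, so the members were compared by gene sums.

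Of the members, 6 reached the read minimum for the comparisons with Tdg+/+ and 5 for Tdg-/- against Tdg+/-. In Tdg+/- against Tdg+/+, 0 of 6 were called at an adjusted p under 0.05 by edgeR, where 0.0288% of all 13880 genes tested were, and DESeq2 also called 0. At an unadjusted p under 0.05 Sox7 was lower, where 7.41% of all genes were. Its lines did not overlap, as for 8.98% of all genes. However, Sox7 passed the read minimum only through the Tdg+/+ lines, where it was high. Nothing is therefore read from its place in this count or in any later count, including that of any difference among the 3 genotypes. In Tdg-/- against Tdg+/+, 0 of 6 were called by edgeR and 0 by DESeq2, where edgeR called 0.0718% of 13926 genes, and Sox7 and Lamb1 were lower at an unadjusted p under 0.05 (6.79% of all genes) and without overlap (5.28% of all genes). In Tdg-/- against Tdg+/-, 1 of 5 was called, Lamb1, where 9.03% of 13962 genes were called and 5.51% were called lower. Of the 5 tested members it was also the 1 lower at an unadjusted p under 0.05 (18.8% of all genes tested). It was the 1 tested member that was lower without overlap (13.1% of all genes tested). Gata6, lower in Tdg-/-, and Dab2, higher in Tdg-/-, also did not overlap between these genotypes. Both were under the read minimum and so outside these counts. How often genes with so few reads lie apart in this way was not measured, so nothing is read from either. In the test of any difference among the 3 genotypes 0 of 6 members were called, where 3.67% of 14105 genes were, and Sox7 and Lamb1 had an unadjusted p under 0.05, as did 32.0% of all genes. The comparisons share lines, and with 5 or 6 members tested a single gene sets each of these counts.

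The rest of the basement membrane list held other laminin chains, nidogens, perlecan, agrin, fibronectin, their receptors and the enzymes that modify collagen, 22 genes in all, of which all 22 were tested. In Tdg-/- against Tdg+/- lines 3 of 22 fell and 0 rose, where 5.51% of all genes fell and 3.52% rose. They were Fn1, the fibronectin gene, with a log2 fold change of -0.86 (SE 0.176, adjusted p = 0.0282), Dag1, which encodes the laminin receptor dystroglycan (log2 fold change -0.92, SE 0.199, adjusted p = 0.0317), and Lama5, the laminin α5 chain (log2 fold change -0.49, SE 0.133, adjusted p = 0.0492), by edgeR. Their levels did not overlap between the 2 genotypes. Fn1 was at 467.3 to 648.9 CPM in the Tdg+/- and 245.7 to 386.5 CPM in the Tdg-/- lines, Dag1 at 50.3 to 58.3 CPM and 24.5 to 42.3 CPM, and Lama5 at 74.2 to 107.5 CPM and 58.0 to 66.9 CPM. The median log2 fold change of the list was -0.29, beside -0.02 over all genes tested. Leaving out Tdg-/- line 1 raised the count to 10 of 22, all lower, where 22.2% of all genes were called lower. The 10 then included the laminin γ1 and β2 chains Lamc1 and Lamb2 and both nidogens, Nid1 and Nid2, which tie laminin to type IV collagen. In the same setting Tdg-/- against Tdg+/+ had 7 of 22 lower and 1 higher, from 0 with all lines, where 10.5% of all genes were called lower and 11.7% higher. With all lines edgeR called 0 of 22 in both comparisons with Tdg+/+, and DESeq2 called 4 for Tdg+/- and 0 for Tdg-/-, where it called 5.36% and 0.668% of all genes. At an unadjusted p under 0.05 there were 5 higher and 5 lower for Tdg+/- (9.55% and 7.41% of all genes) and 1 higher and 1 lower for Tdg-/- (9.13% and 6.79% of all genes). The calls on Fn1, Dag1 and Lama5 were all lost on leaving out any 1 of Tdg+/- lines 2 and 3 and Tdg-/- lines 2, 3 and 4, which left 12 to 22 calls over all genes in place of 1261. That on Lama5 was also lost without Tdg+/- line 1 (edgeR adjusted p = 0.057).

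**Figure D3:**
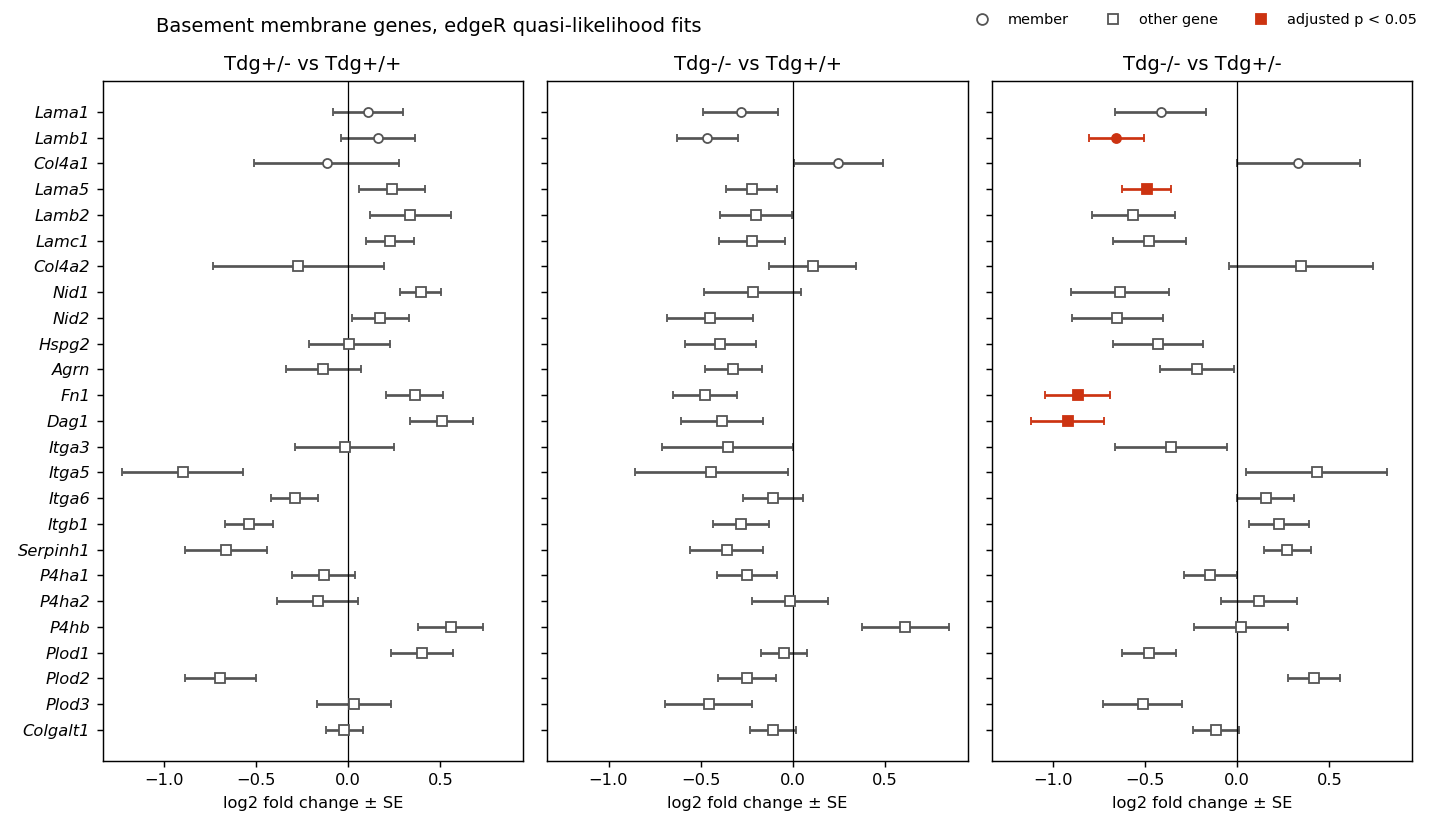
Log2 fold change ± SE of the 3 basement membrane members (circles) and 22 other basement membrane genes (squares) in the 3 comparisons of 2 genotypes, filled in red where the adjusted p was under 0.05 (edgeR quasi-likelihood test). In Tdg-/- against Tdg+/- Lamb1, Lama5, Fn1 and Dag1 are red and lie left of 0, at -0.66, -0.49, -0.86 and -0.92.

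Tdg-/- line 1 lay above the other 3 Tdg-/- lines for 16 of the 22 genes and below them for 2, where over all 14105 genes with 20 reads in a line it lay above for 40.4% and below for 38.4%. Lama1 also lay above, being 1.74 times as high in line 1 as the mean of the others, while Lamb1 was at 1.17 and Col4a1 at 1.03 times. The RNA levels of the laminin chain genes were not equal in any line. Per transcript length Lamc1 was 7.83 to 15.8 times as high as Lamb1 over the 10 lines, and Lama1 was 0.662 to 1.33 times as high as Lamb1. A laminin trimer takes 1 α, 1 β and 1 γ chain, and the other β chain gene measured, Lamb2, was at 5.66 to 21.8 TPM. The other α chain gene measured, Lama5, was at 5.36 to 17.5 TPM. Amounts of the chains as protein were not measured.

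**Figure D4:**
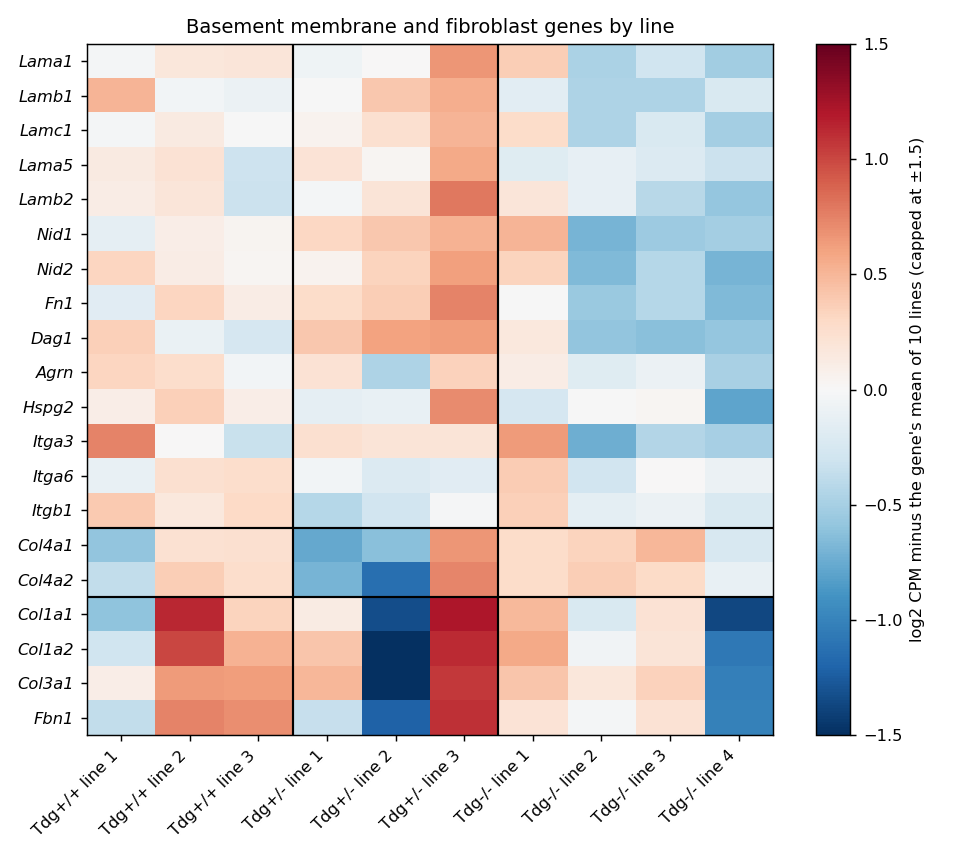
Log2 CPM of laminin, nidogen, other basement membrane, type IV collagen and fibroblast genes in each line, minus the mean of the gene over the 10 lines and capped at 1.5. Tdg-/- lines 2 to 4 are low for Lama1, Lamc1, Nid1, Nid2, Fn1 and Dag1 where Tdg-/- line 1 is not, and Col4a1 and Col4a2 differ over lines in another pattern.

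No relation between the fibroblast markers and these genes passed correction. Over the 10 lines, log2 CPM of Col4a1 and of the log2 summed CPM of the 14 markers correlated with Pearson's r = 0.655 (permutation p = 0.0284) and Spearman's rho = 0.6 (permutation p = 0.0739), and with r = 0.66 without the 2 lines farthest from the median marker sum, Tdg+/- line 2 and Tdg-/- line 4. For Col4a2, the α2 chain that pairs with Col4a1 in type IV collagen, r was 0.814 (permutation p = 0.00635) and rho 0.758 (permutation p = 0.0156), with r = 0.7 without these lines. For Gata4 r was 0.739 (permutation p = 0.0233) but rho was 0.297 (permutation p = 0.407), and without the 2 lines r was -0.219, so that relation rested on them. For Lama1 r was 0.414 (permutation p = 0.236) and rho 0.685 (permutation p = 0.0348), for Pdgfra 0.423 (permutation p = 0.228) and 0.442 (permutation p = 0.205), and for Lamb1 -0.225 (permutation p = 0.559) and 0.139 (permutation p = 0.711). Of these 12 relations, chosen after the values were seen, the smallest Benjamini-Hochberg adjusted permutation p was 0.0762, which is above the threshold. Within genotypes r was 0.694 for Col4a1, 0.839 for Col4a2, 0.718 for Gata4, 0.598 for Pdgfra, 0.562 for Lama1 and -0.276 for Lamb1. Without Tdg+/- line 2 and Tdg-/- line 4 r was 0.644 for Lama1, 0.596 for Pdgfra and 0.0494 for Lamb1. The part of feeder RNA in the level of Col4a1 or of the other genes was not tested.

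**Figure D5:**
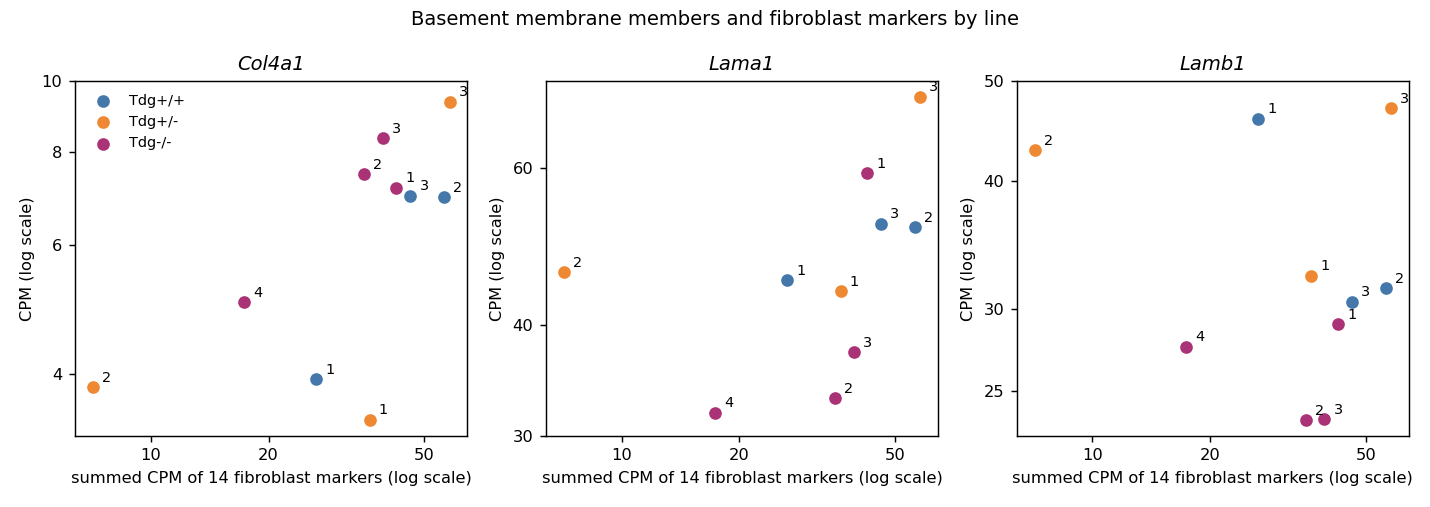
CPM of Col4a1, Lama1 and Lamb1 (log scale) against the summed CPM of 14 fibroblast markers (log scale), 1 point per ESC line coloured by genotype and marked with its line number. Tdg+/- line 2 has the lowest marker sum at 7.12 CPM with a Col4a1 level of 3.84 CPM, and Tdg+/- line 3 the highest at 58.0 CPM with 9.38 CPM.

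For members at 1 CPM or more, the genes whose levels varied most alike were taken as those with the highest Pearson's r over the 10 lines among 12191 genes, on log2 CPM with each genotype's mean removed. They were Pisd and Ppm1f for Lamb1 (r = 0.985 and 0.977), Ints7 and Strn4 for Lama1 (0.979 for both), Pou4f2 and Prkca for Col4a1 (0.96 and 0.949) and Arap2 and Chn2 for Gata4 (0.945 and 0.929). The values are a description of 10 libraries that share depth and composition differences and the highest of many. No gene stood beside 2 members.

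The other genes of extraembryonic endoderm ranged from 0 to the 540.2 TPM of Sparc, a matrix glycoprotein gene. Of 25 such genes 13 reached the minimum in Tdg+/- against Tdg+/+ and in Tdg-/- against Tdg+/-, and 12 in Tdg-/- against Tdg+/+. Afp and Apoa1, which mark visceral endoderm, reached no more than 5 and 4 reads, and Cer1, of the anterior visceral endoderm, had 0 in all 10 lines. The keratin gene Krt8 was the 1 gene called by edgeR, at 37.5 to 49.2 CPM in the Tdg+/- lines, 27.4 to 34.6 CPM in the Tdg-/- lines and 23.5 to 27.0 CPM in the Tdg+/+ lines. Its log2 fold change was -0.55 (SE 0.136, adjusted p = 0.0428) for Tdg-/- against Tdg+/- and 0.76 (SE 0.133, adjusted p = 0.0814) for Tdg+/- against Tdg+/+, and any difference among the 3 genotypes gave an adjusted p of 0.0299 (edgeR). The call between Tdg-/- and Tdg+/- was lost without any 1 of the 3 Tdg+/- lines or Tdg-/- lines 2, 3 and 4 (adjusted p of 0.0691 to 0.142). Krt8 was thus 1 of 13 genes tested for Tdg-/- against Tdg+/-, where 5.51% of all genes were called lower. At an unadjusted p under 0.05 there 2 of the list were higher and 3 lower (16.4% and 18.8% of all genes). There were 2 higher and 2 lower for Tdg+/- against Tdg+/+ (9.55% and 7.41%), and 0 and 1 for Tdg-/- against Tdg+/+ (9.13% and 6.79%). The median log2 fold change of the list was 0.09, 0.05 and -0.17 in Tdg+/- against Tdg+/+, Tdg-/- against Tdg+/+ and Tdg-/- against Tdg+/-, beside -0.02, -0.01 and -0.02 over all genes.

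FGF and ERK signaling, which drives inner cell mass cells to primitive endoderm, was represented by 23 genes, of which 21 were tested in each comparison. In Tdg-/- against Tdg+/- 1 rose and 1 fell by edgeR, where 3.52% of all genes rose and 5.51% fell, the ERK inhibitor gene Spred1 (log2 fold change 0.74, SE 0.181, adjusted p = 0.0415) and Map2k2, which encodes the kinase MEK2 (log2 fold change -0.62, SE 0.168, adjusted p = 0.05, just under the threshold before rounding). Spred1 was at 18.3 to 31.7 CPM in the Tdg+/- and 35.8 to 43.1 CPM in the Tdg-/- lines. Its call was lost without any 1 of the 3 Tdg+/- lines or Tdg-/- lines 2, 3 and 4 (adjusted p of 0.0594 to 0.137), and that of Map2k2 without any 1 of Tdg+/- lines 2 and 3 and Tdg-/- lines 2, 3 and 4 (0.124 to 0.169). In the comparisons with Tdg+/+ 0 of 21 were called by edgeR and by DESeq2. At an unadjusted p under 0.05 there were 0 higher and 1 lower for Tdg+/- (9.55% and 7.41% of all genes). For Tdg-/- there were 1 higher and 5 lower (9.13% and 6.79% of all genes). In Tdg-/- against Tdg+/- 3 were higher and 5 lower at such a p (16.4% and 18.8% of all genes). Among 15 pluripotency genes 1 rose in Tdg-/- against Tdg+/-, Fbxo15 (log2 fold change 0.56, SE 0.145, adjusted p = 0.0456), where 3.52% of all genes rose. At an unadjusted p under 0.05 5 of the 15 were higher and 5 lower (16.4% and 18.8% of all genes). The call on Fbxo15 was lost without any 1 of the 3 Tdg+/- lines or Tdg-/- lines 2, 3 and 4 (adjusted p of 0.0528 to 0.156).

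Markers of other cell types that ESC cultures can hold were measured beside the members. The 9 trophoblast markers summed to 75.98 to 108.8 CPM a line, of which Tfap2c, a gene that ESCs also express, gave 59.1 to 86.3 CPM, while Elf5, Hand1 and Plac1 reached no more than 3 reads. The 7 mesendoderm and definitive endoderm markers summed to 13.3 to 21.1 CPM and the 6 endothelial markers to 9.22 to 23.9 CPM. Of 9 trophoblast markers, 7 mesendoderm and definitive endoderm markers and 14 fibroblast markers 0 were called in each comparison of 2 genotypes by edgeR. At an unadjusted p under 0.05 the 3 comparisons had 0, 1 and 0 trophoblast, 1, 0 and 0 mesendoderm and definitive endoderm, and 1, 0 and 1 fibroblast markers, where 17.0%, 15.9% and 35.2% of all genes had such a p. DESeq2 called 1 of them, the smooth muscle gene Tagln, higher in Tdg-/- than in Tdg+/- lines, where it called 24.0% of all genes (edgeR log2 fold change 1.40, SE 0.489, adjusted p = 0.0814). Of 6 endothelial markers Tek, an angiopoietin receptor gene, fell in Tdg-/- against Tdg+/- (log2 fold change -0.94, SE 0.176, adjusted p = 0.0257), where 5.51% of all genes fell. The call was lost without any 1 of Tdg+/- lines 2 and 3 and Tdg-/- lines 2, 3 and 4 (adjusted p of 0.0678 to 0.115). Cdh5, Emcn and Erg reached no more than 2 reads.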

How the data were processed

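RNA from 10 male mouse ESC lines (3 Tdg+/+, 3 Tdg+/- and 4 Tdg-/-) was sequenced as stranded total RNA libraries after ribosomal depletion. According to the submitters' processing notes, the authors quantified reads with Salmon 0.8.1 on GRCm39. Whether Salmon was given the strand is not given in the sources used here. The deposited files hold, for each of 116357 transcripts, an estimated count of reads, not normalized, and the TPM that the authors' Salmon run computed from effective lengths. Here the estimated counts of a gene's transcripts were added up and rounded to whole reads. Transcripts were paired with genes through GENCODE vM21 (GRCm38), which paired 115153 of them (98.97%), and unpaired transcripts, 0.472% to 0.499% of reads, entered neither library sizes nor tests. Because the builds differ, no gene coordinates are given, and promoter windows carry the build of their own table.

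A gene was tested where 1 or more lines of the fit held 20 reads or more, with edgeR 4.0.16 (TMM, quasi-likelihood) in R 4.3.3, with Benjamini-Hochberg adjustment over all genes tested and a threshold of 0.05. DESeq2 1.42.0, its size factors, no filter, all lines in 1 fit, a transcript length offset, a replicate block, sva 3.50.0 and leaving out each line were alternatives. SE is the log2 fold change over the root of F. The fits were tested on simulated counts. Named genes were the members, Tdg, called genes of each list or else the 3 with the smallest p, and the 2 genes most alike to each member at 1 CPM or more. Other genes, and Lamc1, Lamb2, Nid1, Nid2, Col4a2, Tfap2c, Elf5, Hand1, Plac1, Afp, Apoa1, Cer1 and fibroblast markers among them, were chosen after their values were seen. Members and lists were chosen with earlier results of these data known. Authors' comparisons were not used.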

Additional observations from a re-analysis of the deposited data

Results flagged for a closer look

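Among members and listed genes with at least 20 reads in a line, 78 were examined for a Tdg-/- line far from the other 3, and 5 had one, each time Tdg-/- line 1 as the highest. Chance alone would mark about 1 in 20 groups of this size. The gap between the highest and the next line was more than 0.829 of the whole range for Itga3, an integrin chain gene (9.27 CPM in line 1), Plod3, a collagen lysyl hydroxylase gene (20.99 CPM), Nid1, the nidogen gene (158.7 CPM), Sos1, an exchange factor gene of RAS (24.1 CPM), and Dag1 (42.3 CPM). Lama1 did not pass this limit, although its level in the same line, 59.2 CPM, was 1.74 times the mean of the others.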

How the results depend on the processing

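The members called at an adjusted p under 0.05 were 0 for Tdg+/- against Tdg+/+, 0 for Tdg-/- against Tdg+/+, 1 for Tdg-/- against Tdg+/- and 0 for any difference. Over all genes DESeq2 called 744, 93, 3347 and 3036 genes in these 4 comparisons, against 4, 10, 1261 and 517 by edgeR, and DESeq2 called 1 member, Lamb1, for any difference. No filter on low counts gave 269, 19 and 954 genes for Tdg+/- against Tdg+/+, Tdg-/- against Tdg+/+ and any difference, all 10 lines in 1 fit gave 23 for the first, and 3 surrogate variables gave 3340 there with 1 member, Sox7. A transcript length offset gave 0, 464 and 83 genes for Tdg+/- against Tdg+/+, Tdg-/- against Tdg+/- and any difference, with 0 members in the second, and turned the log2 fold change of Pdgfra between Tdg-/- and Tdg+/- from -0.05 to 0.37. The cause of these differences was not tested.

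Same-numbered lines were not clearly more alike than other pairs. Deviations of same-numbered lines correlated with r of -0.207 to 0.187, over 0.1 in 2 of 9 pairs. Other pairs had r of -0.253 to 0.27, over 0.1 in 7 of 24. The pairs of lines numbered 1 had r of 0.09, 0.162 and 0.00492. Whether same-numbered lines shared a mating or a batch was not tested. With a replicate block 33, 5, 6 and 80 genes were called in the 4 comparisons, and 0 members in all, Lamb1 between Tdg-/- and Tdg+/- having an adjusted p of 0.174 and the 8 called list genes (Fn1, Dag1, Lama5, Krt8, Spred1, Map2k2, Fbxo15 and Tek) 0.151 to 0.217.

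Leaving out 1 line at a time gave 0 to 207, 3 to 3077, 12 to 5659 and 8 to 4996 genes and 0 to 0, 0 to 1, 0 to 2 and 0 to 2 members in the 4 comparisons, the highest count being without Tdg+/- line 1 in the first and without Tdg-/- line 1 in the others. Log2 fold changes that turned ranged from -0.15 to 0.25 for Lama1 and from -0.71 to 0.14 for Col4a1 in Tdg+/- against Tdg+/+, from -0.31 to 0.032 for Gata4 in Tdg-/- against Tdg+/+, and from -0.19 to 0.16 for Pdgfra in Tdg-/- against Tdg+/-. The calls on Lama5 and Map2k2 were also lost with DESeq2's size factors in edgeR, that on Spred1 with all 10 lines in 1 fit, and those on Fn1, Krt8, Map2k2 and Fbxo15 with the length offset, alternatives for list genes that were added after seeing the data. Depth limits Gata6, Sox17, Foxa2 and Dab2, at 0 to 15 reads a line.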
